A study of Mus musculus with 6 samples.

Results

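Batf, Irf4, Ikzf3, Rora, Nfil3, Bhlhe40, Pparg and Id2 are transcriptional regulators linked to the effector and tissue-adapted states of regulatory T (Treg) cells, CD4 T cells that express Foxp3 and hold other immune cells in check. They were taken by gene symbol from the deposited expression table, in which 8 of 55450 genes carry these names. Each was measured in Treg cells taken by cell sorting out of tumours of the MC38 line, a mouse colon carcinoma, in C57BL/6 mice. The 3 Tim-3 deficient libraries came from mice whose Treg cells lack Tim-3, and the 3 Tim-3 sufficient libraries from mice whose Treg cells keep it. Havcr2 encodes Tim-3, a receptor known to restrain T cells. The labels give neither the allele or Cre driver behind the deficiency, nor the age or sex of the mice, nor whether each library stands for its own animal, so the p-values rest on library-to-library spread that may be technical. Levels are TPM values, each gene's share of a library's transcripts after correction for length, so genes can be set side by side, and the read depth is unknown. Libraries are named by the marks in their column names: deficient C1, deficient D and deficient dated, and sufficient A1, sufficient B1 and sufficient dated, where "dated" denotes the 1 library of each group whose name carries a calendar date.

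As background, Treg cells that have seen antigen leave the resting state and take on an effector programme, and some of them settle in tissues or tumours. BATF, a small AP-1 family protein, and IRF4, an interferon regulatory factor, bind DNA together and open this programme, and the Ikaros family member encoded by Ikzf3 (Aiolos) acts in the same activated cells. RORA, NFIL3 and BHLHE40 also belong to the circadian clock network, PPAR gamma marks Treg cells of adipose and other tissues, and ID2 binds E proteins and keeps them from DNA, as its relative ID3 does in resting cells.

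Of these 8 regulators, Nfil3 and Id2 stood lower in Tim-3 deficient Treg cells, and the other 6 differed by at most 0.29 on the log2(TPM + 1) scale. No member passed the threshold of an adjusted p of 0.05 over all 12155 tested genes in limma, where 0.206% of genes passed, and 2 members, Nfil3 and Id2, had an unadjusted p under 0.05, as did 11.7% of all tested genes (4.69% in the lower direction). Nfil3 was the 1 member whose groups did not overlap, which 6.73% of tested genes did in the lower direction and 17.6% in either. The median difference of the 8 members was 0.10 on the same scale, against 0.09 over all tested genes. Of all 12155 tested genes, 7309 had a positive and 4846 a negative difference. A deficient-minus-sufficient difference is meant throughout.

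The sequences before the starts of Nfil3 and Id2 are shown because these 2 genes stood apart from the others. Each is the 250 bases before the RefSeq start on GRCm38.p6, read 5′ to 3′ on the gene's own strand, which is the minus strand for both. Capitals mark, on either strand, the CCAAT box (CCAAT), the E-box (CANNTG, bound by E proteins) and the ROR core (AGGTCA).
Nfil3, chr13:52981040-52981289: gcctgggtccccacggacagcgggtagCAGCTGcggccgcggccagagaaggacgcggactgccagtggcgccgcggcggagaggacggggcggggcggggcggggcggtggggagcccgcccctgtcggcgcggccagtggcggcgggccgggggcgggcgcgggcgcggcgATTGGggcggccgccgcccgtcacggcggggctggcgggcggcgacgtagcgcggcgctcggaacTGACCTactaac
Id2, chr12:25096093-25096342: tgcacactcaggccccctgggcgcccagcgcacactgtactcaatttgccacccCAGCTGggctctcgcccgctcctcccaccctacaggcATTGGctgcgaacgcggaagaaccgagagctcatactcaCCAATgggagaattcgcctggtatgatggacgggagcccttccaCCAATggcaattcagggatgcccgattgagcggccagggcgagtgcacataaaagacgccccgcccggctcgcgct
The Nfil3 window has a GC content of 81.6% and holds an E-box, a CCAAT box and, beginning 12 bases before the start, an AGGTCA core on the opposite strand. The Id2 window has a GC content of 62.8% and holds an E-box and 3 CCAAT boxes. Over 32851 RefSeq windows of this length, 66.2% held an E-box, 33.8% a CCAAT box and 14% an AGGTCA core. Neither window held the AP-1 letters TGANTCA (6.75% of windows), the IRF repeat (GAAA, any 2 bases, GAAA; 2.98%), the NFIL3 letters TTANGTAA (2.06%), the E-box CACGTG (6.02%) or the Ikaros core TGGGAA (21.6%). CACGTG is also a CANNTG. A match is a description of letters and not a bound site. GENCODE places its outermost start 34 bases upstream of the RefSeq start for Nfil3 and 1048 bases upstream for Id2. The Id2 window therefore lies within the gene as GENCODE annotates it. Windows were found for 6 of the 8 members. The windows of Batf, Irf4, Rora and Pparg also lacked the AP-1 letters and the IRF repeat.

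The tissue and targeted gene were checked first. Foxp3, the Treg lineage factor, had 46.1, 43.6 and 42.3 TPM in deficient C1, D and dated, against 44.9, 36.0 and 27.2 TPM in sufficient A1, B1 and dated. Havcr2 had 10.6, 18.3 and 4.84 TPM in the same deficient libraries, against 51.1, 49.0 and 21.5 TPM in the sufficient ones, lower in each deficient library, although its difference of -1.83 ± 0.48 (SE) did not pass over all genes in limma (adjusted p = 0.211). It passed in a limma fit that took the date mark as a block (adjusted p = 0.0148) and in one without both dated libraries (adjusted p = 0.0328). Of 12 macrophage and monocyte markers, none was at 0 in every library, and their summed level was 1330 TPM in deficient C1 and 933 TPM in sufficient B1, against 19.3 to 130.0 TPM in the other 4 libraries. B cell markers summed to between 582 and 793 TPM in deficient and between 338 and 614 TPM in sufficient libraries, while the B cell genes Ms4a1 and Pax5 stayed below 1 TPM in all 6. Dendritic cell markers summed to between 159 and 787 TPM in deficient and between 39.4 and 324 TPM in sufficient libraries, CD8 T and NK cell markers to between 27.7 and 110.0 and between 30.6 and 77.0 TPM, tumour epithelial markers to between 12.8 and 24.5 and between 10.4 and 17.2 TPM, and fibroblast and endothelial markers to between 20.7 and 308 and between 20.9 and 62.2 TPM. In bulk libraries, fewer cells of a type and less RNA per cell cannot be told apart.

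All 8 members were expressed and passed the filter on low values (at least 1 TPM in at least 3 libraries). Id2 was the most abundant, averaging 858 ± 195 TPM in deficient and 1480 ± 520 TPM in sufficient libraries (SD, n = 3 each), a mean level above that of 98.7% of tested genes. Bhlhe40 and Batf came next, at 326 ± 79.7 and 285 ± 68.8 TPM in deficient and 281 ± 87.8 and 235 ± 67.8 TPM in sufficient libraries (SD, n = 3 each). Rora, Nfil3 and Ikzf3 held intermediate levels, and Irf4 and Pparg lay near the middle of all tested genes, at the 50.8 and 41.5 percentiles. The order Id2, Bhlhe40, Batf at the top and Irf4, Pparg at the bottom was the same in all 6 libraries. The ranges of Bhlhe40 and Batf over libraries overlapped in both groups, although Bhlhe40 was the higher within each library. Nfil3 ranked above Rora and Ikzf3 in all 3 sufficient libraries and in deficient dated, and below both in deficient C1 and D.

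**Figure D1:**
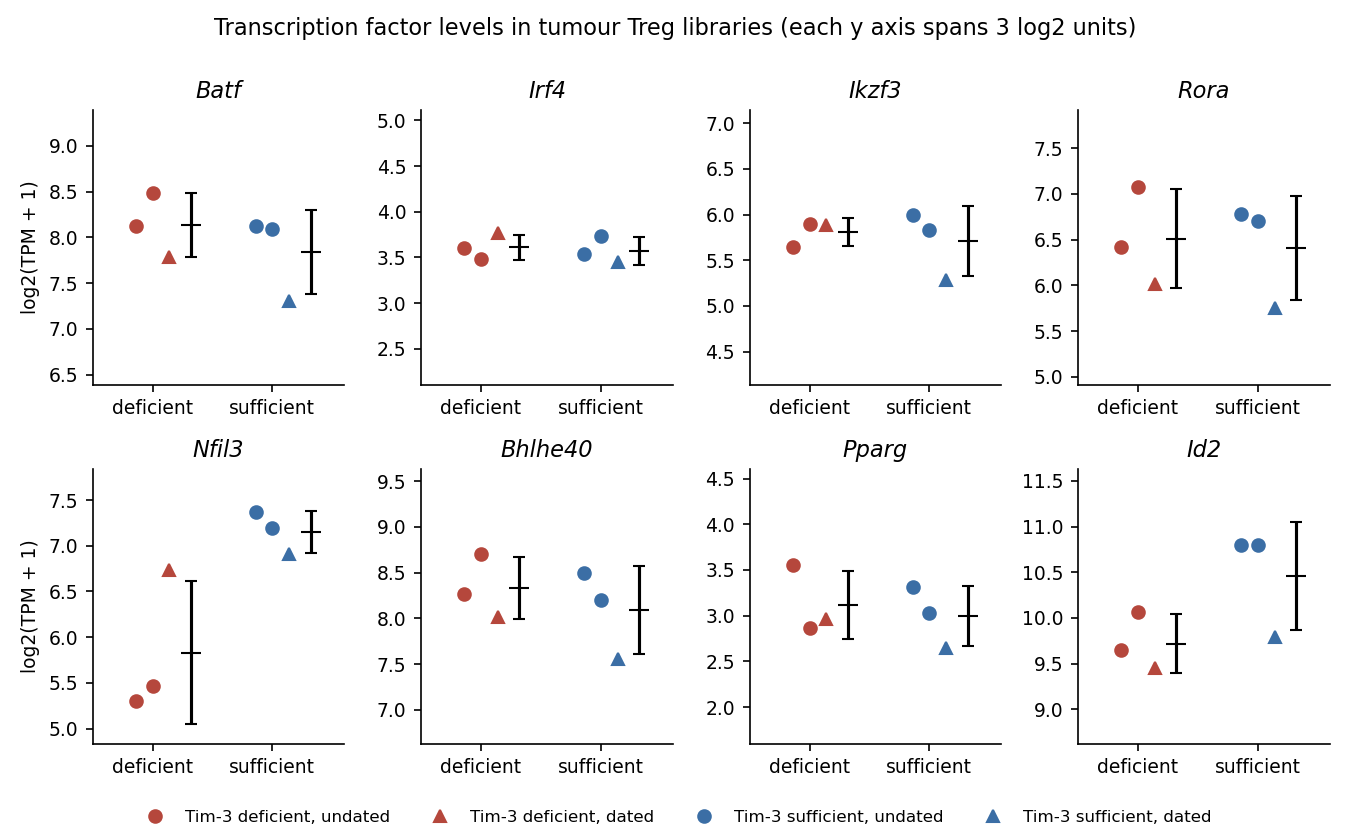
Level of each of the 8 regulators in log2(TPM + 1) on the vertical axis, with deficient libraries left and sufficient libraries right in each panel, 1 point per library (circles undated, triangles dated) and a black bar for the mean and its SD (n = 3). Nfil3 shows the 2 undated deficient libraries at 5.30 and 5.47 and the dated one at 6.73, all below the sufficient libraries at 6.91 to 7.37.

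Batf and Irf4, the pair that opens the effector programme, did not differ beyond the spread between libraries. Batf (ENSMUSG00000034266.6, GRCm38 chromosome 12, 85686669 to 85709087, plus strand) had 278, 357 and 220 TPM in deficient C1, D and dated, against 278, 271 and 157 TPM in sufficient A1, B1 and dated. The dated library was the lowest of each group and the ranges overlapped. Its log2 difference was 0.29 ± 0.26 (SE), with a 95% interval of -0.32 to 0.90 and a limma adjusted p of 0.701.

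Irf4 (ENSMUSG00000021356.10, chromosome 13, 30749226 to 30766976, plus strand) had 11.1, 10.1 and 12.6 TPM in deficient C1, D and dated, against 10.6, 12.3 and 9.90 TPM in sufficient A1, B1 and dated. It varied least among the 8, with an SD of 0.14 log2 units in deficient and 0.15 in sufficient libraries. Its log2 difference was 0.04 ± 0.22 (SE), with an interval of -0.47 to 0.56 (limma adjusted p = 0.958), which still allows a change of up to 1.47-fold upward. Ikzf3 (ENSMUSG00000018168.8, chromosome 11, 98464902 to 98546031, minus strand) had 49.1, 58.9 and 58.4 TPM in deficient and 63.2, 55.9 and 37.9 TPM in sufficient libraries, in the same order. Sufficient dated was the lowest of the 6 and the others lay close together. Its log2 difference was 0.11 ± 0.22 (SE), with an interval of -0.40 to 0.62 (limma adjusted p = 0.88).

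Among the regulators shared with the clock network, Nfil3 was lower without overlap, while the groups overlapped for Rora and Bhlhe40. Nfil3, a basic leucine zipper repressor that is required for innate lymphoid cells in mice (ENSMUSG00000056749.7, chromosome 13, 52967209 to 52981073, minus strand), had 38.5, 43.4 and 105 TPM in deficient C1, D and dated, against 164, 145 and 119 TPM in sufficient A1, B1 and dated. Every deficient library lay below every sufficient library, but deficient dated came close to them. The mean was 5.83 ± 0.78 log2(TPM + 1) in deficient and 7.15 ± 0.23 in sufficient libraries (SD, n = 3 each). The log2 difference was -1.32 ± 0.36 (SE), with a 95% interval of -2.14 to -0.50, an unadjusted p of 0.00607 and an adjusted p of 0.216 in limma, so it did not pass. Its size was above that of 97.4% of tested genes.

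The Nfil3 difference was larger in the undated libraries. Within the 4 undated libraries it was -1.89, against -0.18 within the dated pair, and the test of the difference between these values, the interaction of group and date mark in limma, gave 1.71 ± 0.29 (SE) with an unadjusted p of 0.000417 and an adjusted p of 0.211. Over all tested genes, 6.1% had an interaction with an unadjusted p under 0.05 and 0.0165% passed after adjustment. Without deficient dated, Nfil3 passed at -1.77 (limma adjusted p = 0.0143), where 0.995% of genes passed. Without both dated libraries it passed at -1.89 (limma adjusted p = 0.00642), where 1.77% passed. Over the 17 alternative fits its difference lay between -1.89 and -1.04, and its adjusted p between 0.00642 and 0.801, the last without deficient C1 and sufficient B1, the libraries with the highest summed macrophage markers of their groups.

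Rora, a nuclear receptor that activates clock genes and is expressed in tissue Treg cells (ENSMUSG00000032238.17, chromosome 9, 68653786 to 69388246, plus strand), had 84.5, 135 and 63.7 TPM in deficient C1, D and dated, against 109, 103 and 53.0 TPM in sufficient A1, B1 and dated. The dated library was again the lowest of each group. Its log2 difference was 0.10 ± 0.35 (SE), with an interval of -0.71 to 0.90 (limma adjusted p = 0.937). Bhlhe40, a basic helix-loop-helix repressor induced on T cell activation (ENSMUSG00000030103.11, chromosome 6, 108660629 to 108666925, plus strand), had 307, 414 and 258 TPM in deficient C1, D and dated, against 362, 293 and 188 TPM in sufficient A1, B1 and dated. The groups overlapped, with the dated library lowest in each. Its log2 difference was 0.24 ± 0.27 (SE), with an interval of -0.38 to 0.86 (limma adjusted p = 0.769).

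Pparg, the lipid-sensing nuclear receptor (ENSMUSG00000000440.12, chromosome 6, 115360951 to 115490399, plus strand), was the least abundant of the 8. It had 10.7, 6.27 and 6.76 TPM in deficient C1, D and dated, against 8.92, 7.14 and 5.28 TPM in sufficient A1, B1 and dated. Its highest value was in deficient C1, which also had the highest summed macrophage markers, and macrophages are known to express Pparg. In the sufficient group, B1 had more of these markers than A1 (933 against 130 TPM) but less Pparg (7.14 against 8.92 TPM). The log2 difference of Pparg was 0.13 ± 0.30 (SE), with an interval of -0.57 to 0.83 (limma adjusted p = 0.904). Without deficient C1 it was -0.09. The part of macrophage transcripts in this value was not tested.

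Id2, the inhibitor of E proteins that is abundant in effector lymphocytes (ENSMUSG00000020644.9, chromosome 12, 25093799 to 25097140, minus strand), had 803, 1070 and 697 TPM in deficient C1, D and dated, against 1780, 1790 and 882 TPM in sufficient A1, B1 and dated. Sufficient dated lay among the deficient libraries, below deficient D, so the groups overlapped, while within the undated libraries and within the dated pair the deficient value was the lower. The log2 difference was -0.74 ± 0.29 (SE), with a 95% interval of -1.42 to -0.06, an unadjusted p of 0.0365 and an adjusted p of 0.386 in limma, so it did not pass. It was -0.94 in undated and -0.34 in dated libraries, and the interaction of group and date mark was 0.60 ± 0.28 (SE, limma adjusted p = 0.829). Id2 passed without both dated libraries (limma adjusted p = 0.0423). Over the 17 alternative fits its difference lay between -1.08 and -0.53, and its adjusted p between 0.0423 and 1.0. With the date mark as a block, Nfil3 and Id2 had adjusted p values of 0.0845 and 0.0709 in limma, and no member passed, while 1.97% of all tested genes did.

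**Figure D2:**
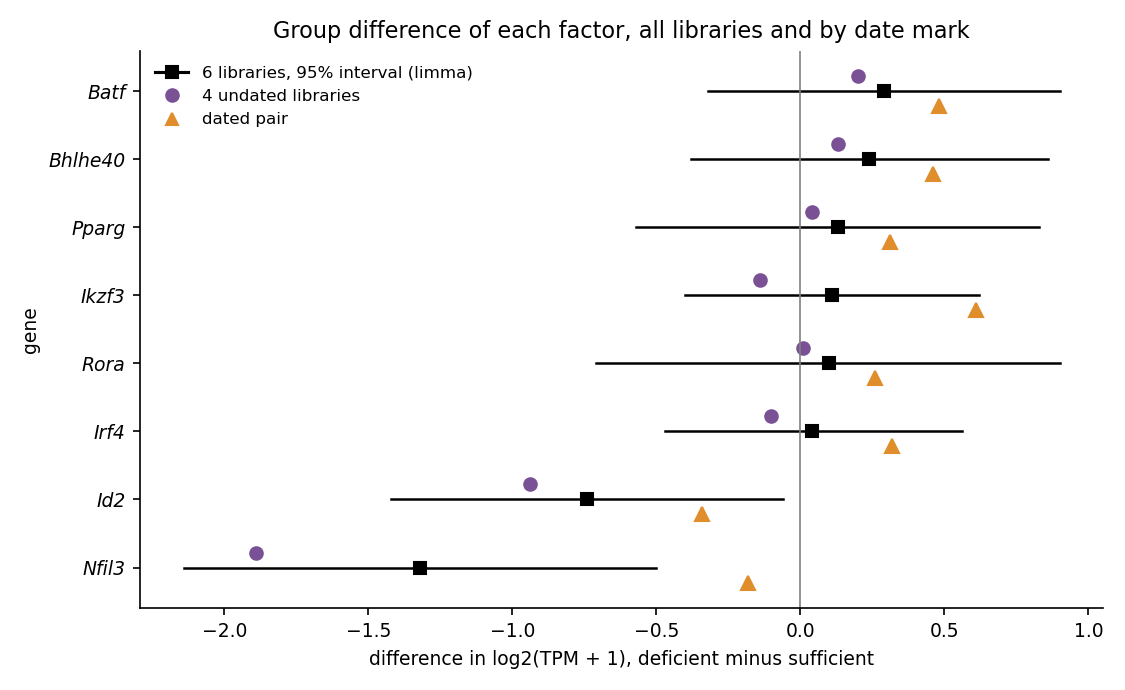
Deficient-minus-sufficient difference in log2(TPM + 1) of each regulator (horizontal axis), with all 6 libraries as black squares and their 95% limma interval, the 4 undated libraries as purple circles and the dated pair as orange triangles. Nfil3 stands at -1.89 (undated) and -0.18 (dated), and the 6 genes above Id2 have intervals that span 0.

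In the sufficient group, the dated library was the lowest for 8 of 8 members, against 53.1% of tested genes. In the deficient group it was the lowest for 4 of 8, against 51.2%, and there the dated library lay above the mean of the undated ones for Nfil3, Irf4 and Ikzf3, by 1.34, 0.23 and 0.12 on the log2(TPM + 1) scale. The differences of Irf4 and Ikzf3 changed sign between undated libraries and the dated pair, at -0.10 and 0.32 for Irf4 and at -0.14 and 0.61 for Ikzf3. The dated values are 1 library against 1, so these changes of sign were not tested. Batf, Rora, Bhlhe40 and Pparg had larger values in the dated pair (0.48, 0.26, 0.46 and 0.31) than among undated libraries (0.20, 0.01, 0.13 and 0.04). Centring each library on its median moved the median difference of all tested genes by -0.13, and under it Irf4, Rora, Pparg and Ikzf3 turned slightly negative. No direction is therefore given for these 4 genes, nor for Bhlhe40, which had -0.02 without sufficient dated.

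Id2 was set beside its relative Id3 within each library. Id3, which marks resting and naive cells, had 16.4, 16.7 and 20.4 TPM in deficient C1, D and dated, against 4.34, 5.20 and 8.85 TPM in sufficient A1, B1 and dated. Its difference of 1.45 did not pass in limma (adjusted p = 0.113) but did with the date mark as a block (adjusted p = 0.0252). Id2 minus Id3 on the log2(TPM + 1) scale was 5.53, 5.92 and 5.02 in deficient C1, D and dated, against 8.38, 8.17 and 6.49 in sufficient A1, B1 and dated. Every deficient library lay below every sufficient library, at means of 5.49 ± 0.45 in deficient and 7.68 ± 1.04 in sufficient libraries (SD, n = 3 each). The difference of -2.19 had a two-sided exact permutation p of 0.1, the smallest that 3 against 3 libraries can give. It was -2.55 in undated and -1.46 in dated libraries. It combines the -0.74 of Id2 with the larger 1.45 of Id3, which is not a member. Both genes were chosen with earlier results of these data known, so the separation is no further support for either. Among the E proteins that both bind, Tcf3 had a difference of 0.56 (limma adjusted p = 0.584) and Tcf12 0.19 (limma adjusted p = 0.821), and neither passed.

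**Figure D3:**
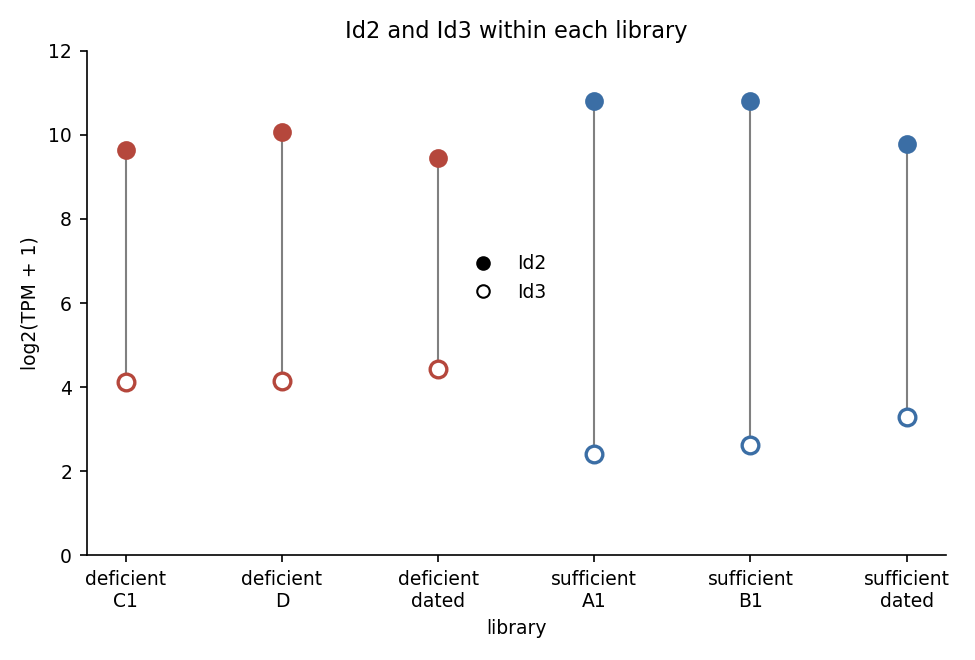
Id2 (filled) and Id3 (open) in log2(TPM + 1) in each library, deficient libraries in red on the left and sufficient libraries in blue on the right, joined by a line that spans their difference. The difference is 5.02 to 5.92 in deficient and 6.49 to 8.38 in sufficient libraries.

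The relatives and partners of BATF and IRF4 did not share 1 direction. Of 12 genes, 10 were tested, 7 had positive and 3 negative differences (median 0.18), and none passed over all genes. Irf8, which guides myeloid and B cell development, had 28.4, 30.8 and 16.7 TPM in deficient C1, D and dated, against 75.8, 78.5 and 43.7 TPM in sufficient A1, B1 and dated. Each deficient library was below each sufficient one, as for 6.73% of tested genes. The Irf8 difference was -1.35 ± 0.31 (SE, limma adjusted p = 0.152), and with the date mark as a block it passed (adjusted p = 0.00963). Junb, an AP-1 partner of BATF, had 1400, 1470 and 1730 TPM in deficient C1, D and dated, against 1050, 978 and 780 TPM in sufficient A1, B1 and dated, a difference of 0.72 (limma adjusted p = 0.142). Irf7, an interferon-induced factor, had 0.67 (limma adjusted p = 0.159). Batf2 and Batf3 failed the filter on low values, with at most 3.21 and 1.14 TPM.

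In the Ikaros family, none of 4 tested relatives of Ikzf3 passed. Ikzf5 had 0.28, Ikzf1 -0.31 and Ikzf4 -0.17, with limma adjusted p values of 0.69, 0.716 and 0.88. Of 16 other effector and tissue Treg factors, 4 had positive and 12 negative differences (median -0.29), and none passed. Negative differences were found for 4846 of all 12155 tested genes. Maf, a driver of Il10 in T cells, had -0.98, Nr4a3, an early T cell receptor response factor, -0.67, and Tbx21, the T helper 1 factor, -0.69, with limma adjusted p values of 0.106, 0.288 and 0.318. The groups did not overlap for these 3 genes, which were picked by smallest p. Over all tested genes, 6.73% did not overlap in the lower direction. Maf passed once the date mark entered as a block (adjusted p = 0.0421).

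Effector and tissue Treg genes, many of them known to depend on BATF or IRF4 in mice, had 23 negative and 4 positive differences among 27 tested (median -0.28). Over all 12155 tested genes, 4846 had a negative difference (median 0.09). Cxcr6, a chemokine receptor of tissue T cells, was the 1 gene of the list past the threshold, in the lower direction, where 0.074% of all tested genes passed. It had 225, 305 and 248 TPM in deficient C1, D and dated, against 919, 803 and 705 TPM in sufficient A1, B1 and dated. Its difference was -1.64 ± 0.17 (SE, limma adjusted p = 0.0221). The call was lost (adjusted p in limma) without deficient D (0.0784), sufficient A1 (0.136) or sufficient B1 (0.127). It was also lost with no filter on low values (0.153) and without the mean-variance trend (0.0805). Leaving out deficient C1 and sufficient B1, the libraries with the highest summed macrophage markers of their groups, lost it too (limma adjusted p = 0.229). Over the 17 alternative fits the adjusted p of Cxcr6 lay between 0.00731 and 0.229. Entpd1, an ectoenzyme that degrades ATP, had -1.17 and the adhesion receptor Cd44 -0.96, short of the threshold in limma (adjusted p = 0.0727 and 0.0861), and both passed once the date mark entered as a block (adjusted p = 0.021 and 0.0306). Il1rl1, which encodes the IL-33 receptor ST2 and was singled out after its values were seen, had the largest difference of the list and ran the other way. It had 113, 122 and 37.7 TPM in deficient C1, D and dated, against 19.6, 15.6 and 6.83 TPM in sufficient A1, B1 and dated. The groups did not overlap, as for 10.9% of tested genes in the higher direction. Its difference was 2.55 ± 0.51 (SE, limma adjusted p = 0.113, and 0.003 with the date block). With that block, 1 gene of the list was called higher and 6 lower, against 136 higher and 104 lower of all 12155 tested genes. The median of this list was -0.56 in undated and 0.09 in dated libraries. Of 9 Treg and T cell markers, 7 had negative and 2 (Foxp3 and Ikzf2) positive differences (median -0.32), and none passed. Those of smallest p, Trac, Cd3d and Cd3e, had -0.61, -0.51 and -0.32 (limma adjusted p = 0.288, 0.3 and 0.435). They were lower in every deficient library, as were 6.73% of tested genes. Their part in the other differences was not tested.

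The clock genes beside Rora, Nfil3 and Bhlhe40 had 8 positive and 5 negative differences among 13 tested of 18 (median 0.23), and none passed. Positive differences were also the more frequent over all tested genes, at 7309 of 12155. Nr1d1, a clock repressor that is known to repress Nfil3 in mouse T cells, had 2.70, 3.62 and 1.47 TPM in deficient C1, D and dated, against 0.57, 1.40 and 0.61 TPM in sufficient A1, B1 and dated. Its difference was 0.93 ± 0.35 (SE, limma adjusted p = 0.348). Its paralog Nr1d2 had 0.52 (limma adjusted p = 0.466), and Ciart, a repressor within the clock, had 0.90 (limma adjusted p = 0.374). All 3 were higher in every deficient library, as were 10.9% of tested genes, at levels of only a few TPM for Nr1d1. Any part of Nr1d1 in the Nfil3 values was not tested.

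Genes of the PPAR gamma pathway and lipid handling had 6 positive and 6 negative differences among 12 tested of 22 (median 0.03), and none passed. Rxra, the partner receptor of PPAR gamma, had -0.45, Cpt1a, the entry enzyme of mitochondrial fatty acid oxidation, 0.48, and Hilpda, a hypoxia-induced lipid droplet protein, -0.74, with limma adjusted p values of 0.54, 0.604 and 0.351. Hilpda stood at -1.16 in undated and 0.11 in dated libraries.

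Factors of resting and naive T cells had 7 positive and 3 negative differences among 10 tested of 12 (median 0.34), beside 7309 positive of all 12155 tested genes. None of the list passed over all genes. Besides Id3, Klf3 had 1.75 and Klf2, which sustains lymphocyte recirculation, 1.01 (limma adjusted p = 0.0822 and 0.285). Both were picked by smallest p and were higher in every deficient library, as were 10.9% of tested genes. Klf3 passed in the limma fit blocked on the date mark (adjusted p = 0.024), where 1.97% of tested genes passed. Immediate early and dissociation genes had 14 positive and 2 negative differences among 16 (median 0.79), and none passed over all genes. Their summed level was 4320 to 5350 TPM in deficient and 2690 to 3200 TPM in sufficient libraries. Btg2, an antiproliferative gene, and Zfp36, an mRNA decay factor, had 0.96 and 0.95 (limma adjusted p = 0.0727 and 0.152, and 0.024 and 0.0476 with the date block). With that block, 7 of the 16 were called higher and 0 lower, against 136 higher and 104 lower of all 12155 tested genes. The part of these genes, which dissociation of tissue can induce, in the values of the 8 members was not tested.

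**Figure D4:**
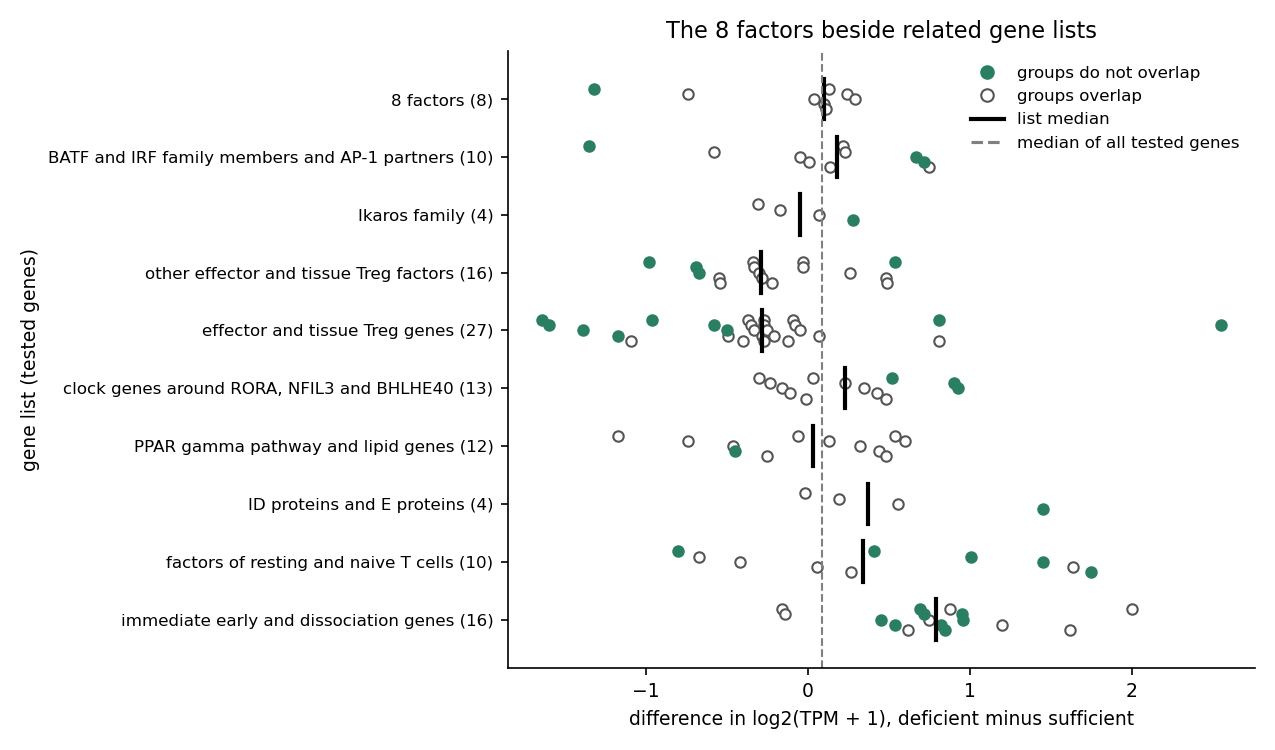
Deficient-minus-sufficient difference in log2(TPM + 1) of each tested gene (horizontal axis) in the 8 factors and 9 related lists (rows, with the number of tested genes), green where the groups did not overlap, black bars for the list median and a dashed line for the median of all tested genes. Effector and tissue Treg genes have a median of -0.28 and immediate early genes 0.79, against 0.10 for the 8 factors.

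Over the 6 libraries, the tested gene most like each member had a Pearson's r between 0.967 (Bivm for Irf4) and 0.997 (Nfyc for Bhlhe40), with Gm23346 at 0.996 for Nfil3 and Gm3020 at 0.996 for Id2. The median of the highest r over all tested genes was 0.994, so values near it are typical with 6 libraries, and that of Irf4 lay below it. The annotated genes that overlap a member on the opposite strand were low: Gm15511 within Rora reached 2.75 TPM, 0610040F04Rik at Bhlhe40 0.26 TPM, and Gm44079 within Pparg was listed at 0. On the same strand, the small nuclear RNA gene Gm25106 within Ikzf3 reached 7.17 TPM in sufficient A1. It had 4.27 TPM in deficient C1 and 1.9 TPM in deficient dated, and was listed at 0 in deficient D, sufficient B1 and sufficient dated.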

How the data were processed

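RNA of Treg cells sorted into lysis buffer was made into libraries with a Nextera XT kit and read as 75 bp pairs, per the labels' protocols. The submitters' processing notes name the tools STAR, RSEM and limma, with no version, and the builds GRCm38 and mm10. The authors deposited log2(TPM + 1) values, read as such because library totals after back-transformation ran from 999999 to 1000001. TPM keeps no counts, so no depth, counting interval or floor was computed, and it is a share that shifts when abundant transcripts change. No label says that strand was kept.

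All 55450 identifiers matched GENCODE mouse release 21 (GRCm38), and 27 altered symbols were restored. Libraries held from 11470 to 12681 genes at 1 TPM or more. Genes at a log2 value of at least 1 in at least 3 of 6 libraries were fitted together (12155) with limma (lmFit, eBayes with trend), two-sided, with Benjamini-Hochberg adjustment and a threshold of 0.05. Intervals are 95% limma intervals. A difference understates the change of low genes. The limma fit was tested on simulated data with independent noise and no date mark.

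The members and lists were chosen with earlier results of these data known. Named genes are the members, and from 10 of the 16 other lists the genes past the threshold and the 3 of smallest p. The 6 lists of other cell types are given as summed levels, and Foxp3 and Havcr2 as checks. Alternatives covered filter, pseudocount, normalization, variance model, date mark and leaving out libraries. Fits ran in limma 3.58.1 under R 4.3.3, and tables, exact tests and plots in pandas 2.3.3, scipy 1.17.1 and matplotlib 3.10.9 under Python 3.11.15.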

Additional observations from a re-analysis of the deposited data

How the results depend on the processing

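Over all tested genes, 25 passed (16 higher, 9 lower), and the count was 1 with no filter on low values, 4 without the mean-variance trend, 38 with quantile normalization (16 higher, 22 lower), 240 with the date mark as a block, 215 without both dated libraries and 0 without deficient C1 and sufficient B1. Leaving out 1 library gave between 0 and 121. With median centring 30 passed (11 higher, 19 lower). Among the 8 members, 0 passed with all 6 libraries, 2 (Nfil3 and Id2) without both dated libraries, and 0 to 1 with 1 library left out. Nfil3 and Id2 kept a negative sign in all 17 alternative fits. Batf had 0.03 without sufficient dated and up to 0.47 with another library left out. With quantile normalization Irf4, Rora and Ikzf3 had -0.08, -0.03 and -0.04, and with median centring Irf4, Rora, Pparg and Ikzf3 had -0.09, -0.04, -0.01 and -0.03. Without both dated libraries Irf4 and Ikzf3 had -0.10 and -0.14. Without deficient C1 and sufficient B1, Pparg had -0.07 and Ikzf1 0.07. With 1 library left out the differences ranged from -0.03 to 0.12 for Irf4, -0.23 to 0.34 for Rora, -0.09 to 0.28 for Pparg, -0.02 to 0.45 for Bhlhe40, -0.10 to 0.26 for Ikzf3, and -0.50 to 0.16 for Ikzf4. Id2 minus Id3 was -2.33 with a pseudocount of 0.1 and between -2.78 and -1.84 with 1 library left out. The cause of these shifts was not tested. No paired analysis was possible because the columns carry no replicate numbers, and the date mark, shared by 1 library of each group, entered as the block above. Intervals of the 6 genes other than Nfil3 and Id2 reach from -0.71 to 0.90 at the widest, and larger differences such as that of Nfil3 also missed the threshold, so a gene that did not pass is not shown to be the same in both groups.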
